A study of Homo sapiens with 8 samples.

Results

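The genes described here are the long intergenic non-coding RNA genes whose symbol is LINC followed by digits alone and that had a mean of at least 50 estimated reads per library. Of 2286 such LINC genes listed among 62826 genes, 172 met the limit, and 1034 had no read in any of the 8 libraries. They were selected on these estimated reads, averaged over both groups, and not on the difference between groups. At the edge of the limit stood LINC00882 with a mean of 50 reads, LINC00852 with 50.8 and LINC01232 with 51.1 inside it, and LINC01625 and LINC01311 with 49.6 and LINC02308 with 49.2 outside it. The group mean itself lay under 50 reads in vehicle cells for 14 of the 172 and in treated cells for 21. Such genes passed through the group where they were high, and 13 and 18 of them were called different.

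The cells were wild-type LUHMES, a human line from embryonic midbrain whose immortalising gene can be shut off so that the cells become post-mitotic neurons, and the series asked how such neurons respond to mitochondrial stress. All cells were differentiated for 6 days with 1 µg/mL of tetracycline, which shuts that gene off, 2 ng/mL of the growth factor GDNF, 1 mM of dbcAMP and 2 mM of L-glutamine. Treated cells then received antimycin A at 25 µM, which blocks respiratory complex III, with oligomycin at 10 µM, which blocks the ATP synthase, for 8 h, and vehicle cells received DMSO. Each group had 4 libraries of poly(A)-selected RNA, numbered 2 to 5 and made from 1.3 µg of RNA. The number follows the letters diff in the sample titles of both groups. The series text describes independent batches with 4 technical replicates each, and the titles of the treated samples carry the words technical replicates, so the libraries were counted as n = 4 while part of their spread may be technical. LUHMES is 1 line, so the batches share 1 genetic background.

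The libraries held 93.7 to 110 M estimated reads. Vehicle replicate 2 was the highest vehicle library for 83 of the 172 genes and the lowest for 54, and the calls that change without it are given below with both values. Neuronal marker genes summed to 5550 to 5719 CPM (counts scaled to library size) in treated and 6402 to 6789 CPM in vehicle libraries, and of these 10 genes 3 rose and 5 fell. Among dopaminergic markers the transporter gene SLC6A3 stood at 570 CPM in treated and 589 CPM in vehicle cells, the rate-limiting enzyme gene TH at 15.4 and 7.48 CPM and DDC at 0.239 and 0.495 CPM, while LMX1A had no read and FOXA2 none in treated cells. Markers of cycling progenitors summed to 348 to 369 CPM in treated and 402 to 501 CPM in vehicle libraries, and 6 of 10 fell while SOX2 (log2 fold change 1.43), PAX6 (0.76) and NES (0.38) rose. Astrocyte markers summed to 52.3 to 58.5 CPM in treated and 35.9 to 38.7 CPM in vehicle libraries, with SLC1A3 higher (28.8 against 3.0 CPM), GJA1 lower and GFAP at no more than 0.0025 CPM on average. Oligodendrocyte markers summed to 20.2 to 25.6 and 27.5 to 37.1 CPM, mostly OLIG2, and the 5 microglial markers to at most 0.146 CPM in any library. Endothelial markers summed to 1.77 to 2.83 and 2.65 to 6.80 CPM, and fibroblast markers to 18.8 to 27.1 and 18.6 to 23.5 CPM. The part of these shifts in the results was not tested, and in bulk RNA fewer cells of a type and less RNA per cell cannot be told apart.

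Long intergenic non-coding RNAs are transcribed by RNA polymerase II, and many are capped, spliced and polyadenylated like messenger RNA but have no long open reading frame. Many start next to a coding gene and run away from it, from a promoter region that drives transcription in both directions. Others serve as the precursor of a microRNA or a circular RNA, and nuclear decay by the exosome keeps many of them at a low level.

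The label was checked against GENCODE release 29, in which 164 of the 172 genes have an entry by Ensembl identifier. There 161 carried a long non-coding RNA type, 130 of them lincRNA, 2 were annotated as protein coding (LINC02693 and LINC02898) and 1, LINC02210, as a unitary pseudogene. Not all were intergenic: 23 overlapped a coding gene, 13 of them on the same strand and 10 on the opposite strand only, and another 11 lay within 1 kb of one. The sources used here do not say whether strand was used in counting, so reads of overlapping genes cannot be told apart.

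Stretches of sequence are shown first for the loci on which the later results turn. For 3 loci the stretch between a pair of diverging starts is given, since there the 2 neighbours share their upstream sequence. For LINC00654, LINC00662 and LINC00472, which are a large rise, the most abundant rise and the fall with microRNAs inside, the 300 bases from 250 before to 50 after the start are given. All are from RefSeq on GRCh38.p14, 5′ to 3′. Between the starts of LINC01547, which runs on the minus strand, and SLX9 lie the 115 bases at chr21:44939914-44940028, plus strand. Between POFUT2 on the minus strand and LINC00205 lie 156 bases at chr21:45287896-45288051, plus strand, and between LINC03068 on the minus strand and LINC02870 lie 206 bases at chr10:132444983-132445188, plus strand. The LINC00654 window is chr20:5504547-5504846, the LINC00662 window chr19:27793891-27794190 and the LINC00472 window chr6:71420696-71420995, each on the minus strand. Capitals mark a match to TGACNNNGC, the antioxidant element.
LINC01547 to SLX9: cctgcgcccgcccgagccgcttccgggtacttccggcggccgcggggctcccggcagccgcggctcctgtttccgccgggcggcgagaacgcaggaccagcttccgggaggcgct
POFUT2 to LINC00205: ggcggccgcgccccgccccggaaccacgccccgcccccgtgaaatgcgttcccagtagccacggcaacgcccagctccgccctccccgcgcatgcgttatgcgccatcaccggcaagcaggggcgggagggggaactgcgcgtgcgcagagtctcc
LINC03068 to LINC02870: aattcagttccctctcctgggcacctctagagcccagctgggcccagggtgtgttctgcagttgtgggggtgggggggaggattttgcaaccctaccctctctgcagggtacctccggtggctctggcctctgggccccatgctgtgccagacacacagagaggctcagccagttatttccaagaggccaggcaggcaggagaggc
LINC00654: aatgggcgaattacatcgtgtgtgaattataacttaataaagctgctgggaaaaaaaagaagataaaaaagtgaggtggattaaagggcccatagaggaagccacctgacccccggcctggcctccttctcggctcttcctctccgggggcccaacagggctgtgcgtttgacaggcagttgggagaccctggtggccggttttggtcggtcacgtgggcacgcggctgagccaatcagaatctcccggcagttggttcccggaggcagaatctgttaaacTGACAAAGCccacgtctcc
LINC00662: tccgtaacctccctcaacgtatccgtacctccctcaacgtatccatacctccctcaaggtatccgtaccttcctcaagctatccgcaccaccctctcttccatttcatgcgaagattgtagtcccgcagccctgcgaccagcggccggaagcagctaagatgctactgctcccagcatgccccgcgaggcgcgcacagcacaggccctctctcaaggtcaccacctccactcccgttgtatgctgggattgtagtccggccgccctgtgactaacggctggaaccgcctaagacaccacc
LINC00472: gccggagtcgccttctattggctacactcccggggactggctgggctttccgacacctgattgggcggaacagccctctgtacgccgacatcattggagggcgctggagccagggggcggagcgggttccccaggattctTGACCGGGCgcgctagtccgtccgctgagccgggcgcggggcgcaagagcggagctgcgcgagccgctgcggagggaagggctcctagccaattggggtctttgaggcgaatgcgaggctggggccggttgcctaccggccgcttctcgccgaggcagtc

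The stretches between LINC01547 and SLX9 and between POFUT2 and LINC00205 were rich in CG, with a GC content of 78.3% and 74.4% and 19 and 21 CG dinucleotides. The stretch between LINC03068 and LINC02870 had a GC content of 62.1% but a single CG (count 1). RefSeq and GENCODE place the starts of the latter pair differently, and GENCODE has LINC03068 end at 132441484 and LINC02870 begin at 132444327 on chromosome 10.

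Promoter windows were available for 120 of the 172 genes. The antioxidant element was found in 22 of them (18.3%) and in 16.1% of all 27305 genes with a window. TGACGTCA, the cAMP response element, was found in 6 (5.0%, against 2.25% of all genes). It was in 1 of 23 windows of genes that rose, 1 of 63 of genes that fell and 4 of 34 of genes not called. TGANTCA, the AP-1 site, was found in 9 (7.5%, against 9.37%), and TGATGNAA, the site of ATF4 with C/EBP factors, in 5 (4.17%, against 4.46%). TGACGTGG, the element of the unfolded protein response factor XBP1, was found in 1 (0.833%, against 0.927%). The endoplasmic reticulum stress element and a heat shock element, searched by their consensus letters, were found in none, against 0.0916% and 0.608% of all genes. Both strands were searched, and CRE and AP-1 letters can overlap those of the other elements. Of 23 windows of genes that rose, 4 held the antioxidant element, and of 63 windows of genes that fell, 12 did.

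More LINC genes fell than rose. Of the 172, 82 were lower and 39 higher in treated cells, and 51 did not pass the threshold of an adjusted p under 0.05 (edgeR quasi-likelihood test, adjusted over all genes). The 121 called were 70.3% of the LINC genes, beside 57.9% of the 19785 genes tested and 59.2% of the protein-coding ones. Of all genes 30.2% were lower and 27.7% higher, and of protein-coding genes 29.2% and 30.1%, so that 47.7% lower among LINC genes stood above that background and 22.7% higher stood below it. The median log2 fold change of treated over vehicle was -0.31 for the LINC genes, -0.02 for all genes and 0.02 for 14615 protein-coding genes. Of the 2557 other lncRNA genes tested, 57.8% were called, 38.9% lower and 18.9% higher, with a median of -0.29, so the excess of falls was also found there. Of the 163 LINC genes tested that lay under the read limit, 58.3% were called, 30.7% lower and 27.6% higher, with a median of -0.12.

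Changes of at least 2-fold were found in 47 LINC genes (27.3%), 33 lower (19.2%) and 14 higher (8.14%). The share was 17.3% of all genes, 8.49% lower and 8.79% higher, and 13.4% of protein-coding genes, 5.37% lower and 8.05% higher. Among other lncRNA genes it was 30.9%, 21.1% lower and 9.82% higher, and among LINC genes under the read limit 36.2%, 16.0% lower and 20.2% higher. Some of the 47 LINC genes passed the read limit only through the group where they were high. LINC00622 had 10.75 reads on average in vehicle cells and LINC00652 21.25 in treated cells, so the LINC shares are partly set by the limit. With both group means required to reach 50 reads, a limit chosen after seeing the data, 64 of 137 were lower and 26 higher. These counts are for changes of any size, and 2-fold changes were not counted that way. Scaling by library totals alone moved the median of all genes from -0.02 to -0.12 and gave 89 LINC genes lower and 33 higher. All 121 called genes had the same sign in each of the 4 same-numbered pairs of libraries. Where the groups of a gene are apart any pairing gives this, so it adds nothing to such calls. Of the 121 genes, 102 were also called, in the same direction, under each of 16 alternative fits.

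**Figure D1:**
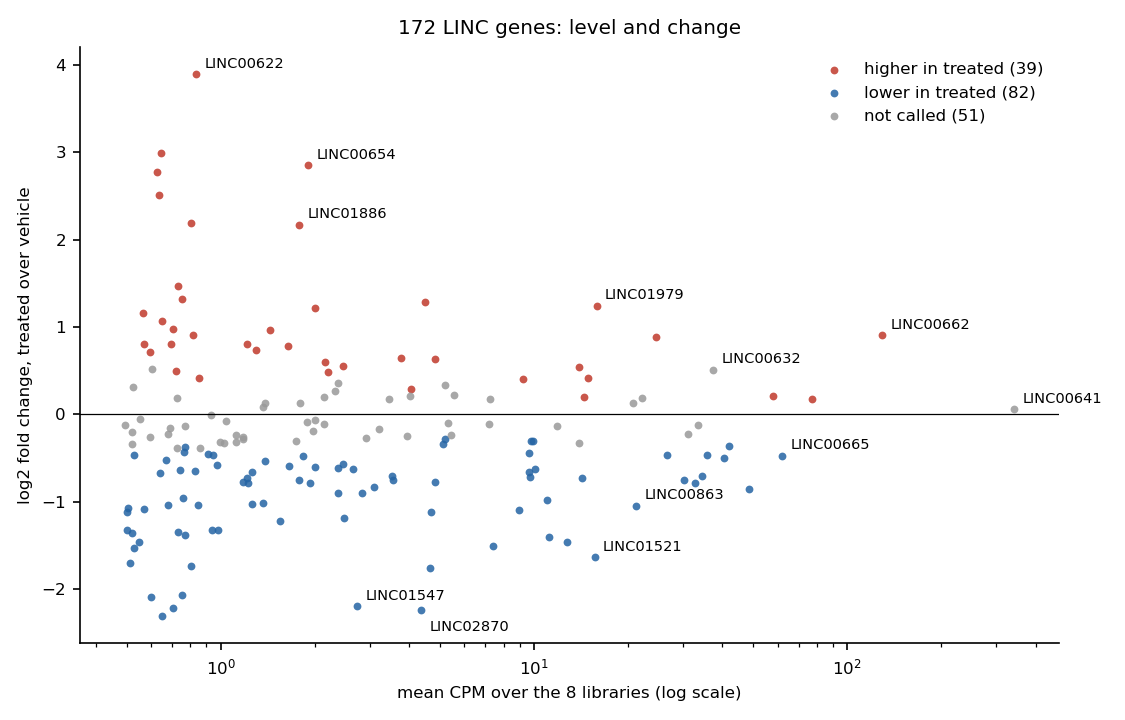
Each point is 1 of the 172 LINC genes, with its mean CPM over the 8 libraries on a log scale (x) and its log2 fold change of treated over vehicle (y). Red points (39) were called higher, blue points (82) lower and grey points (51) neither. Blue points outnumber red ones in all, and also among genes with a mean of at least 200 reads (40 against 16).

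Together the LINC genes took a small part of each library, and less of it after treatment. They held 0.145%, 0.150%, 0.151% and 0.158% of the reads in the treated libraries and 0.177%, 0.172%, 0.169% and 0.174% in the vehicle libraries, in the order of replicates 2 to 5. Every treated library lay below every vehicle library. LINC00641, which lies beside the splicing regulator gene HNRNPC, had 22.3% ± 1.79 (SD, n = 4) of the LINC reads in treated and 19.9% ± 1.36 (SD, n = 4) in vehicle libraries. Without it the shares of all reads were 0.117% ± 0.00177 and 0.139% ± 0.00228 (SD, n = 4 each).

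Levels ran over a wide range, from a mean of 0.494 CPM to 342 CPM with a median of 1.81 CPM. Of the 172 genes, 32 reached 10 CPM and 61 stayed under 1 CPM. On the TPM scale, which corrects for transcript length, the highest means over the 8 libraries were those of LINC00662 at 66.2, LINC00641 at 64.1, LINC00665 at 60.6 and LINC02210 at 50.8, followed by LINC00888 at 35.2, LINC00632 at 30.4 and LINC00863 at 29.3. LINC02693, LINC01896 and LINC01128 came next at 25.9, 23.9 and 20.9 TPM. Among these 10 abundant genes LINC00662 and LINC00888 rose by more than 0.8 log2 units and LINC00863 fell by 1.05. LINC00632 was not called with all libraries (0.51) but was at 1.15 without vehicle replicate 2.

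LINC00662, a long spliced RNA mostly studied in tumours, rose from 90.5, 90.7, 89.8 and 89.9 CPM in vehicle replicates 2 to 5 to 161, 165, 160 and 192 CPM in the treated ones (log2 fold change 0.91 ± 0.0695 SE, adjusted p = 2.8e-06, edgeR quasi-likelihood test). The vehicle libraries lay within 1 CPM of each other, and every treated library lay above them. LINC00888 rose from 17.3 ± 0.543 to 31.9 ± 1.37 CPM (SD, n = 4 each, log2 fold change 0.89). LINC00641, the most abundant by reads, stood at 302, 342, 353 and 400 CPM in treated and 389, 292, 315 and 344 CPM in vehicle libraries. Its groups overlapped and it was not called (log2 fold change 0.06, adjusted p = 0.64, edgeR).

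LINC00665, an RNA beside zinc finger genes of chromosome 19, fell from 82.2, 70.4, 69.0 and 67.1 CPM to 51.9, 53.4, 53.1 and 49.5 CPM (log2 fold change -0.47 ± 0.0744 SE, adjusted p = 0.000355, edgeR). The groups did not overlap. LINC02210 fell from 41.3 ± 0.583 to 29.9 ± 0.886 CPM and LINC00863 from 28.6 ± 1.4 to 13.9 ± 0.449 CPM (SD, n = 4 each). Both overlap a coding gene, LINC02210 the readthrough gene LINC02210-CRHR1 and LINC00863 NUTM2D, so their reads may be shared. LINC01896, beside the developmental transcription factor gene SALL3, fell by 0.28 on the log2 scale, a call that changed under 6 alternatives. The call of LINC01128 changed under 8. The rises of LINC01128 (0.21) and LINC02693 (0.18) were small, and that of LINC02693 had the opposite sign on the TPM scale (-0.017, adjusted p = 0.90 with limma).

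LINC00654 and LINC01886 had the largest rises among genes with a mean of at least 1 CPM. LINC00654 rose from 0.419, 0.452, 0.457 and 0.510 CPM in vehicle to 2.89, 3.25, 3.48 and 3.74 CPM in treated libraries, replicates 2 to 5 (log2 fold change 2.86 ± 0.133 SE, adjusted p = 1.2e-07, edgeR). LINC01886 went from 0.694, 0.570, 0.836 and 0.484 CPM to 3.20, 2.63, 3.0 and 2.79 CPM (2.17 ± 0.172 SE, adjusted p = 3.6e-06). In both, the lowest treated library lay more than 3-fold above the highest vehicle library. LINC00654 had a mean of 48.3 reads in vehicle cells, so it exceeded the read limit through the treated group alone. LINC01979, downstream of the Rab regulator gene TBC1D16, rose from 9.41 ± 0.536 to 22.3 ± 2.46 CPM and LINC01772, downstream of the endocytic adaptor gene NECAP2, from 1.2 ± 0.0712 to 2.78 ± 0.170 CPM (SD, n = 4 each). LINC02986 (log2 fold change 1.29), LINC01012 (0.97), LINC02878 (0.81) and LINC01355 (0.78) completed the 10 largest rises among genes with a mean of at least 1 CPM. The groups of LINC01355 overlapped, with 1.53 to 2.56 CPM in treated and 0.760 to 1.67 CPM in vehicle libraries, and its call was kept in 13 of 16 alternative fits.

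Below a mean of 1 CPM lay 5 rises of more than 2 log2 units, chosen here after their values were seen. These 5 genes had 10.8 to 30 reads on average in vehicle cells, and met the read limit only through the treated group where they were high, so the choice of genes favoured their rise. LINC00622 had the largest rise of the 172 genes, from 0.187, 0.0724, 0.0680 and 0.0950 CPM to 1.46, 1.59, 1.61 and 1.57 CPM (log2 fold change 3.90 ± 0.262 SE, adjusted p = 1.2e-06, edgeR). LINC00664 rose from 0.143 ± 0.0388 to 1.15 ± 0.160 CPM, LINC01068 from 0.162 ± 0.0710 to 1.09 ± 0.198 CPM, LINC02940 from 0.190 ± 0.0437 to 1.08 ± 0.0807 CPM and LINC02798 from 0.292 ± 0.0926 to 1.32 ± 0.167 CPM (SD, n = 4 each). In each of the 5 the groups were apart. LINC00664 overlaps the zinc finger gene ZNF429.

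Among genes with a mean of at least 1 CPM, LINC02870 and LINC01547 had the largest falls. LINC02870 fell from 9.06, 6.41, 6.89 and 6.54 CPM to 1.85, 1.51, 1.67 and 1.06 CPM (log2 fold change -2.24 ± 0.181 SE, adjusted p = 4.0e-06, edgeR). LINC01547 fell from 4.17, 4.79, 4.43 and 4.48 CPM to 0.965, 0.933, 1.08 and 0.900 CPM (-2.20 ± 0.107 SE, adjusted p = 1.5e-07). In both genes every vehicle library stood more than 3-fold above every treated library. LINC02078 fell from 7.19 ± 0.713 to 2.12 ± 0.217 CPM, LINC01521 from 23.7 ± 1.98 to 7.60 ± 0.160 CPM, LINC03072 from 18.6 ± 2.82 to 6.76 ± 0.461 CPM and LINC02202 from 16.2 ± 1.89 to 6.13 ± 0.636 CPM (SD, n = 4 each). LINC00472 (-1.51), LINC01560 (-1.23), LINC00957 (-1.19) and LINC01224 (-1.12) were the others among the 10 largest falls at a mean of at least 1 CPM. LINC00652, below that level and chosen after its values were seen, had the largest fall of all, from 1.08 CPM on average in vehicle to 0.215 CPM in treated cells (-2.31), and met the read limit only through the vehicle group.

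**Figure D2:**
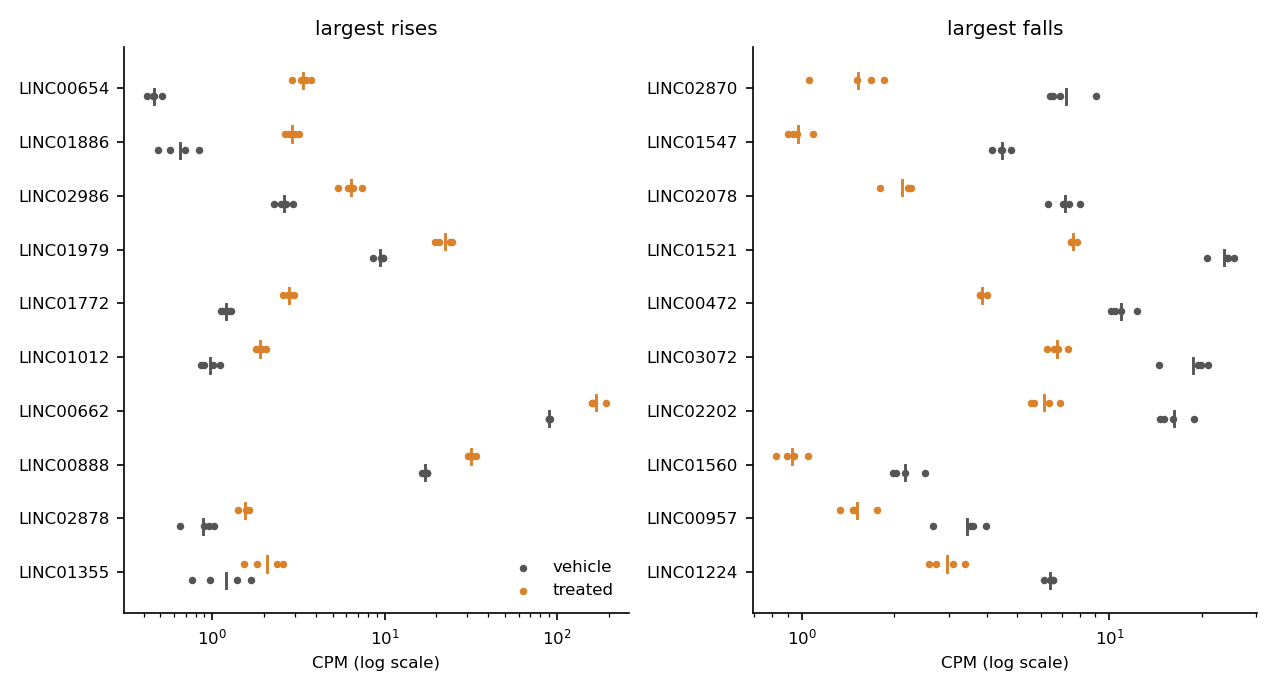
CPM on a log scale (x) of the 10 largest rises (left) and 10 largest falls (right) among LINC genes with a mean of at least 1 CPM, by gene (y). Each point is 1 library, grey for vehicle and orange for treated, and the short bars are group means, and the groups are apart in all but LINC01355.

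LINC00461 and LINC00472 hold microRNA genes. LINC00461, on chromosome 5 from 88507546 to 88691041, is the host of MIR9-2, one source of the neuronal microRNA miR-9, and LINC00472, on chromosome 6 from 71344344 to 71420769, spans MIR30A and MIR30C2. The mature sequences are shown with the seed, bases 2 to 8, in capitals (RefSeq, GRCh38.p14), since the seed sets which messages a microRNA pairs with. miR-30a-5p and miR-30c-5p share theirs. Mature microRNAs were not measured in these poly(A) libraries.
hsa-miR-9-5p: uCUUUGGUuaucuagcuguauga
hsa-miR-30a-5p: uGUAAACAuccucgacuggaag
hsa-miR-30c-5p: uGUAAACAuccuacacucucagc

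LINC00472 fell from 12.3, 10.9, 10.4 and 10.1 CPM to 3.80, 3.99, 3.82 and 3.81 CPM (log2 fold change -1.51 ± 0.0856 SE, adjusted p = 4.1e-07, edgeR). The treated libraries were nearly equal and all lay below the vehicle ones. OGFRL1, whose end faces that of LINC00472 at 35394 bases, went up from 31.9 ± 4.11 to 94.5 ± 9.46 CPM (SD, n = 4 each, log2 fold change 1.57). LINC00461 fell from 6.75, 6.77, 5.93 and 4.91 CPM to 3.87, 4.04, 2.98 and 3.28 CPM (-0.78 ± 0.137 SE, adjusted p = 0.00073). Its groups did not overlap, and its neighbour MEF2C, a neuronal transcription factor gene, was not called (0.15, adjusted p = 0.16).

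LINC00632, on the X chromosome from 140709562 to 140793215, is the host of the circular RNA CDR1-AS, a sponge of miR-7 that is abundant in brain. It stood at 32.7, 43.0, 51.6 and 48.5 CPM in treated libraries and at 63.9, 15.8, 22.0 and 21.6 CPM in vehicle replicates 2 to 5. Vehicle replicate 2 was the highest of all 8 libraries, and the other 3 vehicle libraries lay below every treated one. With it the log2 fold change was 0.51 ± 0.381 SE (adjusted p = 0.27, edgeR), and without it 1.15 (adjusted p = 0.00022). Circular RNA has no poly(A) tail, so these values are for the linear RNA. Without vehicle replicate 2 another 6 genes, named here after their values were seen, also became called (edgeR). LINC03000 moved from 0.26 (adjusted p = 0.21) to 0.45 (adjusted p = 0.0058) and LINC02604 from 0.33 (0.12) to 0.47 (0.016). LINC03011 moved from -0.32 (0.096) to -0.43 (0.013), LINC02245 from -0.31 (0.060) to -0.33 (0.047), LINC00847 from -0.25 (0.11) to -0.34 (0.0072) and LINC03048 from -0.23 (0.21) to -0.34 (0.034). LINC00910 went from -0.47 (0.039) to -0.38 (0.075) and the called LINC01238 from -0.38 (0.048) to -0.30 (0.086), and neither was called then. The fall of LINC00342 moved from -0.63 to -0.35, since vehicle replicate 2 stood at 18.7 CPM and the other vehicle libraries at 9.87 to 10.2 CPM.

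Other LINC genes with a known role in growth or tumours that met the read limit changed by less than 2-fold. LINC00467 and LINC00511 were called lower. LINC00467 fell by 0.31 and LINC00511 by 0.53 on the log2 scale, from 10.8 ± 0.427 to 8.77 ± 0.700 CPM and from 1.64 ± 0.190 to 1.14 ± 0.0542 CPM (SD, n = 4 each). LINC00839 rose by 0.20, and that call was kept in 6 of 16 alternative fits. LINC01116, LINC00520, LINC00941 and LINC01551 had a mean of at most 0.125 reads per library and lay under the read limit.

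The LINC genes were also counted by position relative to the nearest coding gene. Of 53 downstream of it on the same strand, 19 rose (35.8%) and 16 fell (30.2%), beside 27.7% and 30.2% of all genes. The downstream class held 10 of the 14 rises of at least 2-fold. Of those 10, LINC00622, LINC01068, LINC02798, LINC01588, LINC02803, LINC01270 and LINC00654 had under 50 reads on average in vehicle cells. They met the read limit only through the treated group where they were high, so the count is no result about position. Of 42 genes head to head with their neighbour, that is with the starts facing away from each other, 5 rose (11.9%) and 24 fell (57.1%). Of 23 upstream on the same strand 3 rose and 14 fell (60.9%). The tail to tail and the overlapping classes, of 23 each, each had 5 that rose and 13 that fell (56.5%). Members of a class were not treated as replicates, so no test was made between classes.

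**Figure D3:**
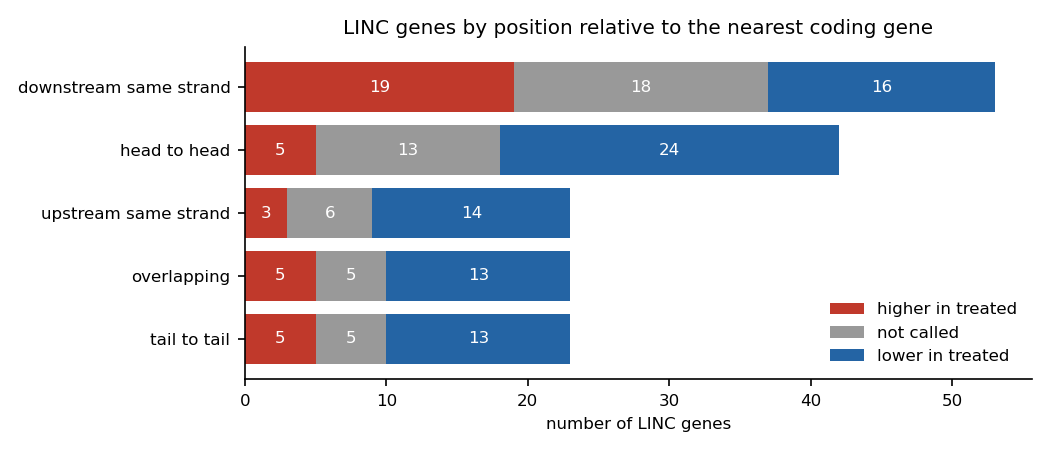
Bars give the number of LINC genes (x) in each position relative to the nearest coding gene (y), split into higher (red), not called (grey) and lower (blue). The downstream same strand class has 19 red against 16 blue genes, and in each of the other classes blue outnumbers red.

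Genes that rose had a median of 9 distinct annotated exons and a span of 19.9 kb, those that fell 7 exons and 8.46 kb, and those not called 12 exons and 30.2 kb. A single exon was annotated for 3 of 37 that rose, 13 of 80 that fell and 2 of 47 that were not called.

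Of 134 LINC genes with a tested neighbour 96 were called, and of the 134 nearest coding genes 34 were higher and 39 lower, together 54.5%, beside 59.2% of all protein-coding genes. Both genes were called in 52 pairs, 25 in the same direction and 27 in opposite directions, and with such shares of calls the number of joint calls is no result about the pairs. Across the 134 pairs the log2 fold changes had Pearson's r = 0.094, a description over pairs measured in the same libraries. Within the downstream same strand class both genes rose in 4 pairs, and in 7 the LINC gene rose while the coding gene fell. LINC00654 lies 39791 bases from GPCPD1, a glycerophospholipid enzyme gene that was not called (-0.07, adjusted p = 0.47, edgeR), and LINC01979 lies 5618 bases from TBC1D16, which fell by 0.28.

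A few neighbours were strongly induced, and the following were chosen after their values were seen. CEBPB, a stress-induced transcription factor gene 100031 bases from LINC01270, rose from 0.695 ± 0.156 to 72.8 ± 16.3 CPM, and LINC01270 rose from 0.430 CPM on average to 1.07 CPM (log2 fold change 1.32), with 44.5 reads in vehicle cells, under the read limit there. SLC1A4, an amino acid transporter gene 83340 bases from LINC02245, rose by 2.67 while LINC02245 was not called (-0.31, adjusted p = 0.060, and -0.33, adjusted p = 0.047, without vehicle replicate 2, edgeR). LINC01002 rose by 0.48 beside PLPP2 (4.06), a lipid phosphatase gene with 0.0281 CPM in vehicle and 0.497 CPM in treated cells.

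The 7 diverging pairs had starts within 1 kb by GENCODE, and in 6 the LINC RNA fell relative to its coding partner. Falls were common in most positions, with 60.9% of upstream, 57.1% of head to head and 56.5% of tail to tail and of overlapping LINC genes. In the downstream class the share was 30.2%, and of all 172 genes 47.7% fell. The count of pairs is thus no result about diverging starts. The ratio of the 2 genes in each library was compared by a two-sided exact permutation test over 70 assignments. Its smallest p is 0.0286, which 6 pairs reached (adjusted p = 0.033 over the 7). Of the 6, LINC01301 met the read limit only through the vehicle group where it was high, so the selection favoured its fall. Where the coding gene was not called, the ratio largely repeats the call of the LINC gene in the same libraries. LINC01547 starts 97 bases from SLX9, a ribosome assembly gene listed as FAM207A in GENCODE. LINC01547 fell by 2.20 on the log2 scale, while SLX9 stood at 18.0 ± 2.59 CPM in treated and 18.2 ± 1.34 CPM in vehicle cells (-0.02, adjusted p = 0.90, edgeR). The log2 ratio fell by 2.18, and by 2.12 to 2.25 with any 1 library left out.

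LINC00205 and POFUT2, an enzyme gene for protein O-fucosylation, start 152 bases apart and were called in opposite directions. LINC00205 fell from 47.5, 64.1, 69.4 and 70.4 CPM to 33.2, 34.3, 36.8 and 34.1 CPM (-0.86 ± 0.115 SE, adjusted p = 0.00012, edgeR). POFUT2 rose from 26.2, 30.3, 29.5 and 30.1 CPM to 62.7, 62.3, 61.7 and 56.0 CPM (1.06 ± 0.0713 SE, adjusted p = 1.2e-06). For both genes the groups were apart. The log2 ratio fell by 1.91, and by 1.87 to 1.99 with any 1 library left out.

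LINC01521 fell by 1.64 and its partner PATZ1, a zinc finger repressor gene, by 0.76. LINC02202 fell by 1.4 and EBF1, a neuronal and B cell transcription factor gene, by 0.30. LINC01560 fell by 1.23 beside ZNF41, which was not called (-0.18, adjusted p = 0.12, edgeR), and LINC01301 by 1.07 beside the Rab gene RAB2A (0.00, adjusted p = 0.99). With any 1 vehicle library left out, the exact permutation p of the LINC01301 pair was 0.0571. LINC01301 averaged 32.0 reads per treated library and 72.8 per vehicle library, so it met the read limit only through the group where it was high, and its fall does not add to the count of the other 5 pairs. LINC02918 and the importin gene IPO13 were both not called, and their log2 ratio changed by -0.15 (exact permutation p = 0.60).

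**Figure D4:**
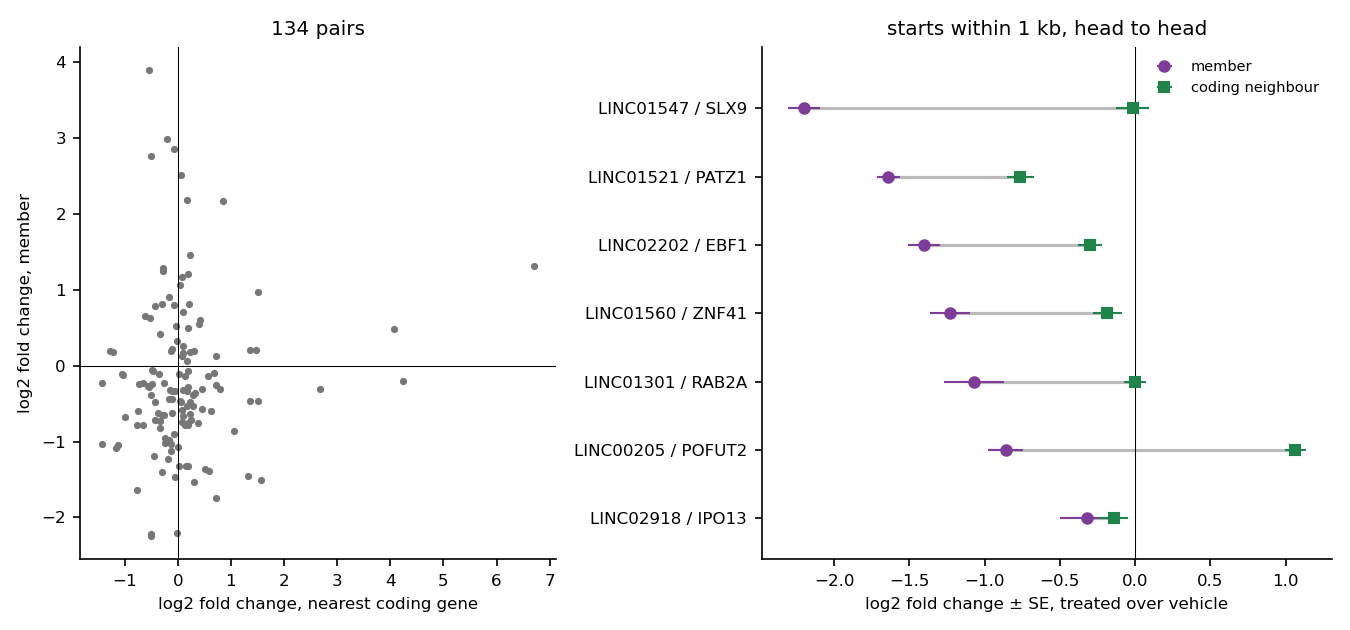
Left, log2 fold change of the nearest coding gene (x) and of the LINC gene (y) for 134 pairs, which spread over all 4 quadrants. Right, log2 fold change with its SE for the 7 diverging pairs with starts within 1 kb, purple circles for the LINC gene and green squares for the coding gene, with the circle to the left of the square in each pair.

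LINC genes that neighbour each other gave both patterns. LINC03068 and LINC02870, whose starts flank the 206 bases shown above, fell together. LINC03068 went from 1.03, 1.43, 1.14 and 1.05 CPM to 0.224, 0.256, 0.228 and 0.283 CPM (log2 fold change -2.23 ± 0.173 SE, adjusted p = 3.1e-06, edgeR), beside -2.24 for LINC02870. LINC03068 had 24.0 reads on average in treated cells and met the read limit only through the vehicle group. LINC00526 (-0.62) and LINC00667 (-0.75), which overlap on chromosome 18, also both fell. LINC00662 and LINC02987 overlap at their starts on chromosome 19 and were called in opposite directions, with LINC02987 falling from 11.1 ± 1.06 to 8.17 ± 0.460 CPM (SD, n = 4 each, -0.44, adjusted p = 0.0015). On chromosome 1 LINC01409 (0.74) and LINC01128 (0.21) rose, and LINC00115 (-0.46), which lies within LINC01128 on the other strand, fell. The calls of LINC01128 and LINC00115 changed under 8 and 5 alternatives.

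Transcript usage, the share of a gene's reads assigned to each of its transcripts, was tested for 59 LINC genes with at least 2 transcripts. It changed in 3 (Simes adjusted p under 0.05, edgeR), against 8.61% of 11746 genes tested. Transcripts were tested if they had at least 10 reads in at least 4 libraries. The transcript behind each of the 3 calls passed that filter only through the group where it was high, so the choice of transcripts favoured these calls. The clearest was LINC02987 (adjusted p = 1.2e-14). Its transcript ENST00000592404.6 took 35.8%, 28.1%, 31.4% and 30.2% of the reads of the tested transcripts in vehicle replicates 2 to 5, and was listed at 0 in every treated library, where a count of 0 allows a share of up to 0.522% to 0.718%. The other tested LINC02987 transcripts summed to 4.96 CPM in treated and 5.24 CPM in vehicle cells, with overlapping groups. The tested transcripts held 57.0% to 63.0% of the gene's reads in treated and 65.2% to 71.5% in vehicle libraries.

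ENST00000592404.6 lies on chromosome 19 from 27793495 to 27799403 on the plus strand, and ENST00000585917.6 from 27793523 to 27805772, so their annotated starts are close. The latter held 37.9% ± 3.79 in treated and 17.5% ± 3.6 in vehicle libraries (SD, n = 4 each). ENST00000587188.2, which begins at 27794049 within the LINC00662 window shown above, held 38.8% ± 3.28 and 27.1% ± 2.56. Division of reads among such similar transcripts is an estimate whose error is not part of the test, and an exact 0 can be a failed estimate.

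**Figure D5:**
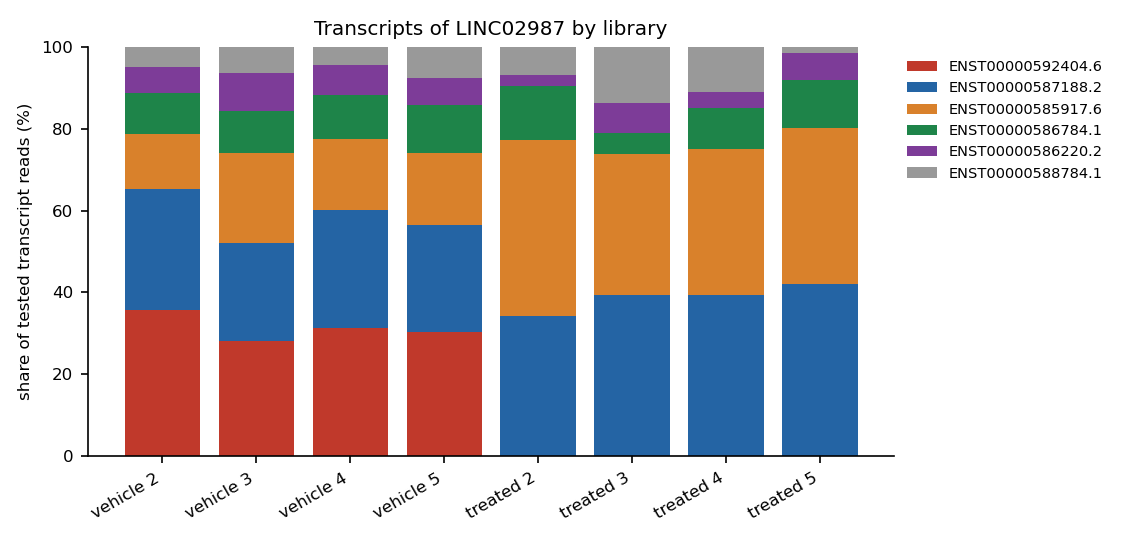
Stacked bars give the percent of the reads of the tested LINC02987 transcripts (y) assigned to each of 6 transcripts in each library (x). ENST00000592404.6, in red, takes 28.1% to 35.8% in the 4 vehicle libraries and is at 0 in the 4 treated ones.

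The other changes of usage were smaller or rested on few reads. ENST00000523099.7 of LINC02904 was at 0 in the 4 vehicle libraries, where a count of 0 allows 1.70% to 2.39%, and held 19.3%, 14.9%, 25.6% and 9.02% in treated ones, from 10.0 to 39.5 reads. ENST00000449005.7 of LINC01128 rose from 0.190% ± 0.379 to 3.72% ± 0.927 (SD, n = 4 each), among transcripts that held 16.9% to 33.7% of the gene's reads. LINC02210 (adjusted p = 0.064) and LINC03007 (adjusted p = 0.28) did not pass. With 1 library left out, 1 to 3 LINC genes were called, and 1 when treated replicate 2, 3 or 4 was left out. The filter still asked for 4 libraries then, so a transcript with reads in 1 group only was dropped when a library of that group was left out. Such lost calls are set by the filter and do not show that a call depends on 1 library.

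The machinery that ends and degrades such transcripts was counted from a list. Of its 65 tested genes of the Integrator, cleavage and polyadenylation, exosome and related complexes, 16 rose and 20 fell, together 55.4% beside 57.9% of all genes, so the count lay near the background, with a median log2 fold change of -0.01 beside -0.02 for all genes. ZCCHC8, the scaffold of the nuclear exosome targeting complex, stood at 28.9 ± 2.37 CPM in vehicle and 81.9 ± 2.14 CPM in treated cells (SD, n = 4 each, log2 fold change 1.5 ± 0.0706 SE, adjusted p = 1.2e-07, edgeR). Of 13 nuclear exosome genes 3 rose and 4 fell. EXOSC8 (1.19), EXOSC6 (0.69) and EXOSC1 (0.46) rose, and EXOSC4 (-0.83), EXOSC9 (-0.48), MPHOSPH6 (-0.46) and EXOSC3 (-0.39) fell, the last 5 being named after their values were seen. TTF2, a termination factor gene, fell by 0.99, CSTF2T, a cleavage factor gene, by 0.59 and CPSF3, the cleavage endonuclease gene, by 0.59.

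The authors also deposited FPKM values for lncRNAs, under a name for differential expression of stress against control. Among the LINC genes, 42 had 1 intact line there at the same locus. The values come from the same 8 libraries and the same contrast, so a shared direction is no independent support. With limma on log2(FPKM + 1), a scale that understates the change of low genes, 22 were called in the same direction as on counts and 0 in the opposite direction. Another 15 were called on counts only, 0 on FPKM only and 5 by neither. The log2 fold changes of the 42 had Pearson's r = 0.84 across genes, which are not independent replicates.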

How the data were processed

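Per-library tables that the authors deposited give estimated counts and TPM for genes and transcripts, per the file headers. The sources used here do not name the quantifier. The submitters' processing notes name HISAT2, SAMtools and StringTie without roles, and hg38. The authors' deposited lncRNA table holds FPKM, per the file headers, and only its 1018 intact lines were used. Estimated counts were rounded. The 19785 genes that passed filterByExpr, among them all 172 LINC genes, were scaled by TMM and tested by quasi-likelihood in edgeR 4.0.16 (R 4.3.3), without covariates and with Benjamini-Hochberg adjustment. The SE is the log2 fold change over the root of F. Usage was tested with diffSpliceDGE on transcripts of GENCODE 29 genes that had 10 reads or more in 4 libraries or more. Alternatives used limma 3.58.1, on log2(TPM + 0.1) among others, and DESeq2 1.42.0. The scripts were tested on simulated data. Genes, lists and tests were chosen with earlier results of these data known. Named are LINC genes with described biology, the 10 largest rises and falls at a mean CPM of at least 1 with 1 sign in 4 pairs, the 10 highest in TPM, the 5 lowest usage p, neighbours, and up to 3 machinery genes each way. Positions are GENCODE 29 on hg38, matched by unversioned identifier, while the files use a later annotation. No libraries of a group agreed within sampling noise. Limits for a count of 0 use 3 reads and cover counting error only. P-values measure the spread between the deposited libraries, part of which may be technical.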

Additional observations from a re-analysis of the deposited data

Results flagged for a closer look

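In 8 of 96 groups of 4 libraries, from 48 LINC genes, 1 library stood apart from the other 3 by Dixon's criterion, and chance gives about 1 in 20. Vehicle replicate 2 was the highest of its group for LINC00632 (63.9 CPM, against 15.8 to 22.0) and for LINC01409 (1.30 CPM, against 0.855 to 0.874). Treated replicate 5 was the highest for LINC00662 (192 CPM, against 160 to 165) and LINC00839 (16.1 CPM, against 15.2 to 15.3), and the lowest for LINC02078 (1.80 CPM, against 2.21 to 2.26). Vehicle replicate 5 was the lowest for LINC00467 (10.2 CPM, against 11.0 to 11.1) and LINC01979 (8.62 CPM, against 9.56 to 9.74). Treated replicate 3 was the highest for LINC00472 (3.99 CPM, against 3.80 to 3.82). For LINC00632 that library lay above every treated one, and for the other genes the groups did not overlap.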

How the results depend on the processing

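Other scalings (DESeq2 size factors, upper quartile, library totals), DESeq2, limma-voom, a length offset and no filter on low counts gave 111 to 124 LINC genes called, against 121. Leaving out 1 library gave 110 to 126, with 34 to 42 higher and 76 to 84 lower. A limit of 20 mean reads took in 255 genes, of which 174 were called, 59 higher and 115 lower, and a limit of 200 took in 80, of which 56 were called, 16 higher and 40 lower. At least 2-fold, 47 were called, 14 higher and 33 lower. Usage was called in 1 to 3 LINC genes with 1 library left out, where the filter on 4 libraries dropped transcripts with reads in 1 group only. Same-numbered libraries did not deviate together (correlations of -0.08 to 0.03, and 0 of 4 treated libraries correlated best with their own number). In groups of 4, with vehicle replicate 2 far from the others, these correlations cannot decide whether equal numbers mark a shared differentiation. The titles carry the same diff numbers in both groups, and the main test used no pairing. With the replicate block 115 were called, 36 higher and 79 lower. Of the single values under an alternative, 829 stayed on their side of the threshold, 55 lost the call, 2 gained it and 1 changed sign, LINC02693 on log2(TPM + 0.1) at -0.017, for which the cause was not tested. LINC00839 and LINC02693 were the least stable, each changed under 11 alternatives. The limits of both group means at 50 reads, the FPKM test, the pair ratios with a library left out and the count without the symbol with 2 identifiers (120 called) were chosen after seeing the data.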
